A study of Trichoderma reesei RUT C-30 with 16 samples.

Results

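The data describe how deletion of *res2* changed the response of *Trichoderma reesei* to dithiothreitol (DTT) in lactose-fed cultures. Of the 16 libraries of the series, 8 came from lactose cultures and were fitted alone, with 2 libraries in each of 4 groups. The groups were Rut-C30 without DTT (Rut-C30 LC), Rut-C30 given 10 mM DTT for 2 h (Rut-C30 LD), and the same conditions in the *res2* deletion strain (Δ*res2* LC and Δ*res2* LD). Rut-C30 is a cellulase hyperproducer that carries a truncated *cre1*, and Δ*res2* was made from it by inserting a hygromycin resistance cassette, so both strains share the *cre1* defect. A single transformant represented Δ*res2*, so a change of its own cannot be told apart from the deletion. The libraries of a group were biological duplicates by the study's account. The p-values weigh a difference against the spread between duplicates, which the fit estimated with information shared across genes. The quantity of interest was the strain difference, the log2 LD/LC of Δ*res2* minus the log2 LD/LC of Rut-C30. It was estimated for 8889 of 10008 genes, and 350 genes passed an adjusted p of 0.05 (edgeR's quasi-likelihood test, Benjamini-Hochberg adjustment).

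DTT reduces disulfide bonds, so secretory proteins cannot fold in the endoplasmic reticulum (ER). Fungi answer with the unfolded protein response, which raises chaperones, foldases and ER-associated degradation, and they lower transcripts of secreted enzymes, known as repression under secretion stress. Growth-related genes for ribosome synthesis are commonly lowered by stress in fungi as well. RES2 is a transcription factor that was first linked to secretion in *Neurospora crassa*. In *T. reesei*, lactose induces cellulases, so the lactose cultures already secrete heavily before DTT is added.

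The deleted gene and the libraries were examined first. The gene TrA1112W (chromosome I, 3588003 to 3589547, plus strand, 1 exon) was taken as *res2* from its counts, since no source used here paired the name with an identifier, so its absence from Δ*res2* is a description and not an independent check of the labels. It had 3561 and 3714 in Rut-C30 LC, 5580.1 and 4914 in Rut-C30 LD, 1.1 and 2.7 in Δ*res2* LC and 0.0 and 0.0 in Δ*res2* LD as normalized counts, that is, counts scaled by trimmed-mean factors to a common library size. It rose with DTT in Rut-C30 by 1.44-fold (0.53 ± 0.08 SE on the log2 scale, adjusted p = 1.72e-05), and no strain difference is given for it because it was deleted. Library totals ranged from 25377536 to 35679977 counts on genes in lactose. The log2 values of duplicates correlated across genes at r of 0.992 to 0.995, and the 2 Rut-C30 LC libraries lay farthest apart.

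The DTT response was large in both strains, and the strain difference was small beside it. In Rut-C30, LD/LC passed the test for 7309 genes (82.2%, with 39.2% up and 43.0% down), and in Δ*res2* for 7207 (81.1%, with 39.7% up and 41.4% down). The strain difference passed for 350 genes, or 3.94% of those tested, with 232 positive (2.61%) and 118 negative (1.33%). Its median over all genes was 0.03, and its median size over all genes was 0.16, against 0.87 for the Rut-C30 response. In the 350 genes its median size was 0.68. Only 61 of the 350 genes differed by more than 1 on the log2 scale. At the threshold, TrC1241C was just inside with -0.46 ± 0.12 (adjusted p = 0.0498) and TrG0418C just outside with 0.42 ± 0.11 (adjusted p = 0.0501).

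**Figure D1:**
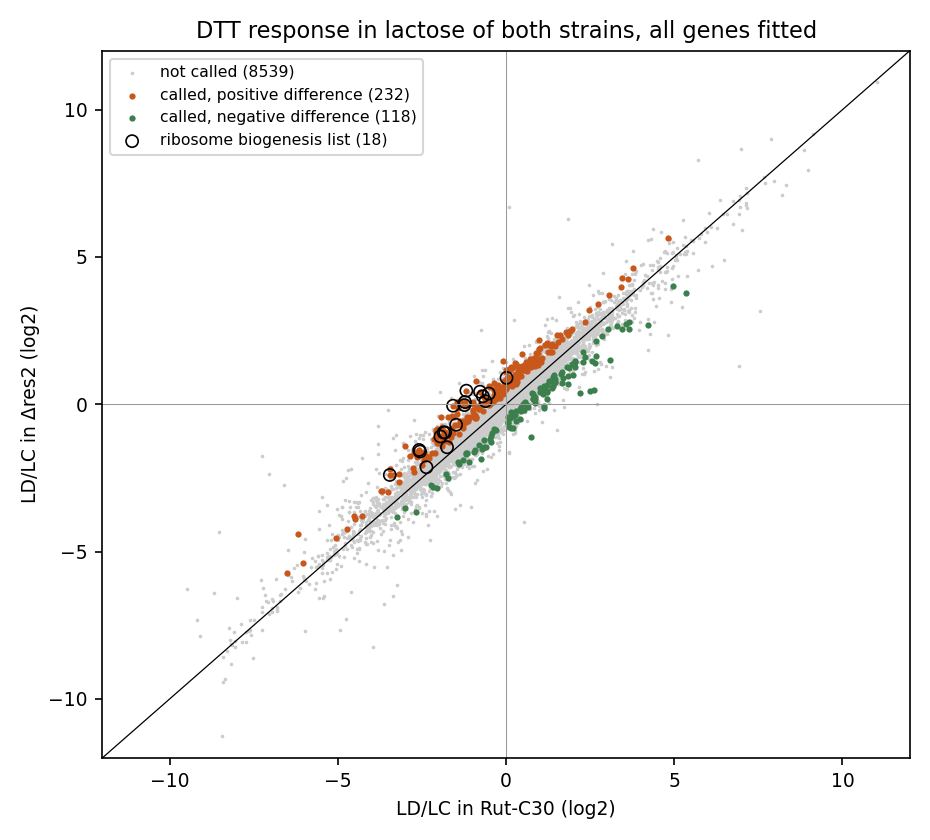
LD/LC in Rut-C30 (x axis, log2) against LD/LC in Δ*res2* (y axis, log2) for the genes fitted in the 8 lactose libraries, with the 350 called genes coloured by the sign of the strain difference and 18 ribosome biogenesis genes ringed; 2 genes lie outside the axes. Points follow the diagonal of equal response, and all 18 ringed genes lie above it.

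The 350 genes fell into 3 classes by direction and size. In 158 genes the response was weaker in Δ*res2*, of which 94 were genes that DTT lowered in Rut-C30 and 64 were genes that it raised. In 122 genes the response was stronger, with 92 raised in Rut-C30 and 30 lowered. Raised and lowered here mean the sign of the fitted value. Across both classes, the response passed the test in both strains for 241 genes, in Rut-C30 alone for 20 and in Δ*res2* alone for 19. In the other 70 genes the fitted responses had opposite signs, and in 25 of these both strains' responses passed the test. A further 22 passed in Rut-C30 alone and 23 in Δ*res2* alone, which does not by itself separate the strains. Weaker and stronger responses thus both occurred among raised and among lowered genes.

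The strains differed more in LD for 188 of 232 positive genes and more in LC for 102 of 118 negative genes. Among the 232 positive genes, the strains differed past the threshold in LD alone for 154, in LC alone for 34, in both for 38 and in neither for 6. The median strain effect (Δ*res2* against Rut-C30, log2) of these genes was -0.18 in LC and 0.54 in LD, and Δ*res2* was higher in LD for 227 of them. Among the 118 negative genes, the strains differed in LC alone for 49, in LD alone for 14, in both for 54 and in neither for 1. Their median strain effect was 0.89 in LC and 0.23 in LD, and Δ*res2* was already higher in LC for 113 of them. Over all genes, the strain effect passed for 13.9% in LC (7.99% higher and 5.94% lower in Δ*res2*) and 13.3% in LD (9.82% higher and 3.48% lower). The positive genes were thus mainly genes at which Δ*res2* stood above Rut-C30 after DTT, and the negative genes were mainly genes that stood higher in Δ*res2* before it. The strain difference is the LD strain effect minus the LC strain effect, so choosing genes by its sign favours this split. The split is a description and not a test.

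**Figure D2:**
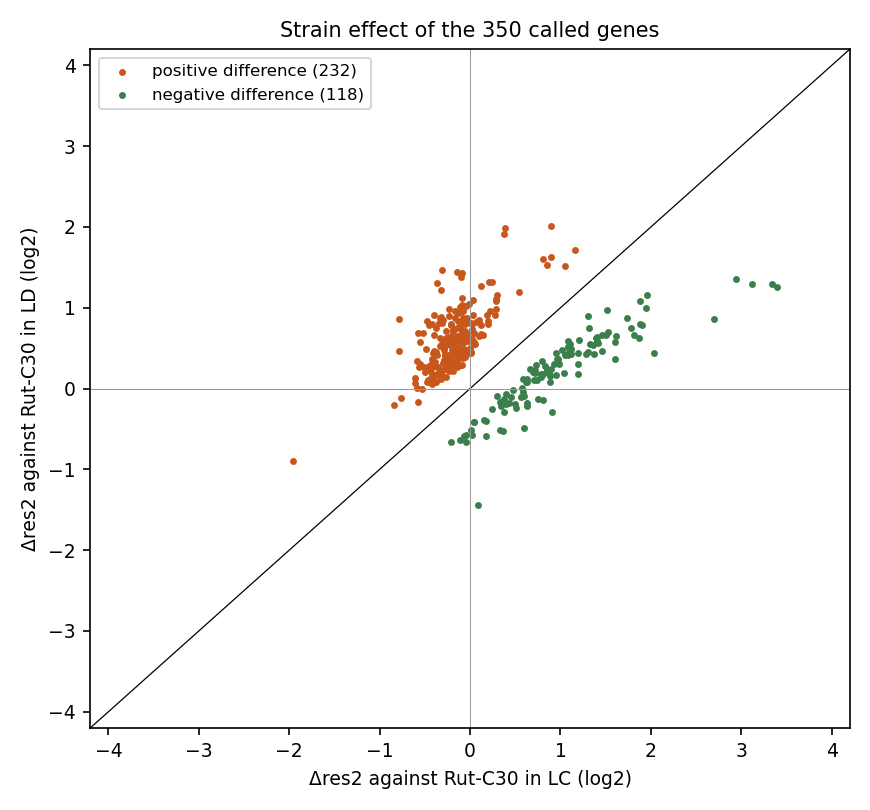
Strain effect without DTT (x axis, Δ*res2* LC against Rut-C30 LC, log2) and with DTT (y axis, Δ*res2* LD against Rut-C30 LD, log2) of the 350 called genes, each point a gene; the vertical distance from the diagonal is the strain difference, which chose these genes. The 232 positive genes centre near -0.18 on the x axis and 0.54 on the y axis, and the 118 negative genes near 0.89 and 0.23.

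Ribosome biogenesis had the highest share of called genes among the term lists examined. Of 18 genes that the study lists under this term, 13 had a positive strain difference past the threshold (72.2%, against 2.61% positive over all genes) and none a negative one. The median difference was 0.93 (range 0.23 to 1.64) against 0.03 over all genes, and all 18 values were positive. The median LD/LC was -1.53 in Rut-C30 against -0.37 in Δ*res2*, so DTT lowered these transcripts less in the deletion strain. The RNA came from whole mycelia, so fewer hyphae with a transcript and less of it per hypha cannot be told apart. LD/LC was past the threshold downward for 17 of the 18 genes in Rut-C30, whereas in Δ*res2* it was down for 9 and up for 3. In LC the median strain effect was -0.10, while in LD it was 0.85, and 17 of the 18 genes were higher in Δ*res2* LD past the threshold. In LC 2 genes were lower in Δ*res2* past the threshold (TrA1675W by 1.72-fold and TrC0244C by 1.32-fold) and none higher, and both Δ*res2* libraries lay below both Rut-C30 libraries for 10 of the 18, which was so for 33.8% of all genes. Both Δ*res2* LD libraries lay above both Rut-C30 LD libraries for all 18 genes, which was so for 29.4% of all genes. The study chose this list from genes that responded in Rut-C30 in these same libraries and found it enriched there, so the list is not independent evidence of its direction. List members come only from the 1729 genes paired with a TRIREDRAFT number through the study's gene lists. Of those, 84 were positive past the threshold, a larger share than over all genes. All 18 genes belong to a numbered cluster of the study with the same history of selection, cluster 5, in which 39 of 407 genes were positive and 5 negative, with a median difference of 0.12.

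**Figure D3:**
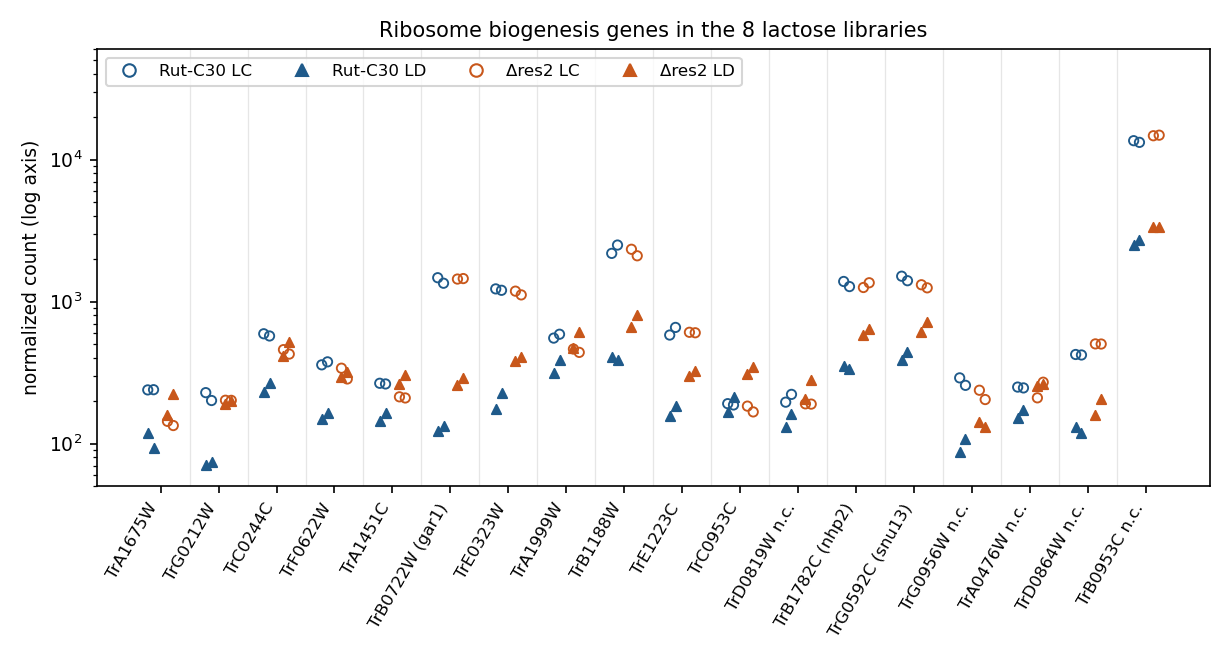
Normalized counts (y axis, log scale) of the 18 ribosome biogenesis genes (x axis, ordered by strain difference, n.c. marking the 5 that did not pass) in each of the 8 lactose libraries; circles are LC, triangles LD, blue Rut-C30 and orange Δ*res2*, and each symbol is 1 library. For every gene both orange triangles lie above both blue triangles.

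Several members fell with DTT in Rut-C30 and stayed level or higher in Δ*res2*. TrA1675W had 239 and 239.7 in Rut-C30 LC, 119 and 92.5 in Rut-C30 LD, 143 and 134 in Δ*res2* LC and 158 and 224 in Δ*res2* LD. It fell with DTT in Rut-C30 (-1.18 log2) but had a value of 0.46 in Δ*res2*, a difference of 1.64 ± 0.26 (SE; adjusted p = 0.0021). TrG0212W had 229 and 201 in Rut-C30 LC, 70.5 and 73.7 in Rut-C30 LD, 202 and 202 in Δ*res2* LC and 191 and 199.7 in Δ*res2* LD. Its Δ*res2* libraries were at one level with and without DTT, while Rut-C30 fell 2.98-fold, and the difference was 1.53 ± 0.21 (adjusted p = 0.00107). TrC0244C had 594 and 573 in Rut-C30 LC, 231 and 268 in Rut-C30 LD, 459 and 427 in Δ*res2* LC and 413 and 522 in Δ*res2* LD. Its Δ*res2* LC libraries lay 1.32-fold below those of Rut-C30 LC (adjusted p = 0.0419), Rut-C30 LD was the lowest group, and the difference was 1.30 ± 0.17 (adjusted p = 8.55e-04). The 5 members that did not pass had differences of 0.23 to 0.88, and the smallest was that of TrB0953C (0.23 ± 0.11, adjusted p = 0.335).

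The study names 4 genes for proteins of small nucleolar ribonucleoproteins (snoRNPs), the particles that guide methylation and pseudouridylation of rRNA, and each of the 4 had a positive difference past the threshold. The pseudouridine synthase of the H/ACA particles, *cbf5* (TrD0762C), had 1901 and 1967 in Rut-C30 LC, 634 and 666 in Rut-C30 LD, 1769.5 and 1667 in Δ*res2* LC and 1123 and 1412 in Δ*res2* LD. Rut-C30 fell 2.97-fold and Δ*res2* 1.35-fold, a difference of 1.13 ± 0.13 (adjusted p = 2.48e-04). A structural partner of Cbf5, *gar1* (TrB0722W), had 1474 and 1348 in Rut-C30 LC, 124 and 133 in Rut-C30 LD, 1442 and 1454 in Δ*res2* LC and 259 and 289.6 in Δ*res2* LD. It was the most strongly lowered of the 5, 11-fold in Rut-C30 and 5.27-fold in Δ*res2*, with a difference of 1.06 ± 0.14 (adjusted p = 7.02e-04). Another H/ACA protein, *nhp2* (TrB1782C), had 1387 and 1277 in Rut-C30 LC, 351 and 338 in Rut-C30 LD, 1258 and 1358 in Δ*res2* LC and 581 and 645 in Δ*res2* LD, with a difference of 0.86 ± 0.12 (adjusted p = 0.00119). The gene *snu13* (TrG0592C), whose product binds box C/D snoRNAs, had 1511 and 1404 in Rut-C30 LC, 390.4 and 440.0 in Rut-C30 LD, 1315 and 1251 in Δ*res2* LC and 607 and 714 in Δ*res2* LD. Its difference was 0.85 ± 0.13 (adjusted p = 0.00191). A further gene, *tfIIIA* (TrF0966W), encodes the zinc finger factor of 5S rRNA transcription, which the study lists among transcriptional regulators. It had 459.8 and 442 in Rut-C30 LC, 122 and 120.3 in Rut-C30 LD, 347 and 381 in Δ*res2* LC and 213 and 211 in Δ*res2* LD, with a difference of 1.12 ± 0.17 (adjusted p = 0.00173), while none of 8 other regulator genes named by the study passed. In LC the strain effect of none of the 5 passed the threshold, with values from -0.31 to 0.04. In LD all 5 were higher in Δ*res2*, by 1.59-fold for *snu13* to 2.14-fold for *gar1*. Of these, *snu13*, *nhp2* and *gar1* are also among the 18 genes above. The study named these 5 genes from its own results on these libraries. It lists *tfIIIA* as changed in LD/LC in Rut-C30 alone, a comparison close to this contrast. Their positive differences are therefore not independent evidence.

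The purine nucleotide list held genes of the same pattern. In it, 3 of 9 genes had a positive difference (33.3%, against 2.61% over all genes) and none a negative one, with a median of 0.27. The study chose this list from these same libraries, and all 9 genes were lowered past the threshold in Rut-C30. Such a list favours a positive difference and is not independent evidence. Of the 1729 genes with a TRIREDRAFT number, from which its members come, 84 were positive past the threshold. In cluster 5, 39 of 407 genes were positive. The clearest was TrB1442W, with 7988 and 8037 in Rut-C30 LC, 2008 and 2235 in Rut-C30 LD, 7681 and 7593 in Δ*res2* LC and 4097 and 4537 in Δ*res2* LD. It fell 3.78-fold in Rut-C30 and 1.77-fold in Δ*res2* (1.09 ± 0.11, adjusted p = 1.14e-04). TrG0707C (0.99 ± 0.14, adjusted p = 0.0014) and TrA0973C (1.21 ± 0.24, adjusted p = 0.0293) also passed, whereas the enolase gene *eno1* (TrA1058C, 0.27 ± 0.15) and the nucleoside diphosphate kinase gene *ynk1* (TrA0344C, 0.02 ± 0.12) did not. A ribosomal protein gene, *rpl8* (TrB1138C), had 22368 and 21994 in Rut-C30 LC, 3998 and 3785 in Rut-C30 LD, 19822 and 20047 in Δ*res2* LC and 4863 and 4750.5 in Δ*res2* LD. It fell 5.7-fold in Rut-C30 against 4.15-fold in Δ*res2*, a smaller difference of 0.46 ± 0.11 (adjusted p = 0.0357). The call of *rpl8* was lost with DESeq2's size factors (adjusted p = 0.0572) and without any of the LD or Δ*res2* LC libraries (adjusted p up to 0.167), and that of TrA0973C was lost without either Rut-C30 LC library, Rut-C30 LD replicate 1 or either Δ*res2* LC library (up to 0.135).

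The same contrast was fitted in the glucose cultures, whose libraries had no part in calling the 350 genes. Fitted alone, the 8 glucose libraries had a biological coefficient of variation of 0.494 against 0.0711 in lactose, and the median SE of the difference was 0.72 against 0.14. No gene of 8966 passed in glucose (0.00%; edgeR, where 71 genes had an unadjusted p below 0.05). In the ribosome biogenesis list, 17 of 18 glucose differences were positive, with a median of 0.59 against 0.04 over all genes. This is a description only, since the study's clusters of Rut-C30 also drew on its glucose libraries, and a list of genes that fell with DTT in Rut-C30 favours a positive difference. Of the 232 positive genes, 165 were positive in glucose too (71.1%, against 56.1% of all genes with a positive difference in lactose). Of the 118 negative genes, 71 were negative in glucose (60.2%, against 50.8%). The difference between the carbon sources was tested in 1 model of all 16 libraries, and no gene passed (0.00% of 9101; edgeR, where 128 had an unadjusted p below 0.05), so these data do not separate lactose from glucose for any named gene.

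**Figure D4:**
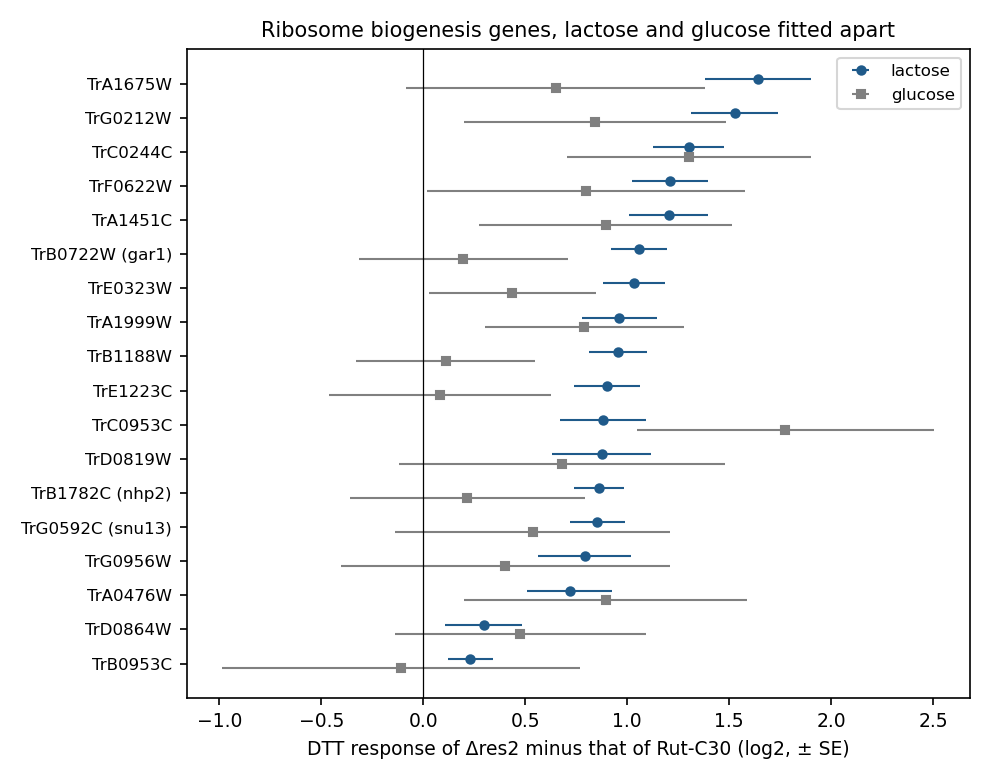
Strain difference in the DTT response (x axis, log2, Δ*res2* minus Rut-C30) of the 18 ribosome biogenesis genes (y axis) in lactose (blue circles) and glucose (grey squares), each fitted alone, with bars of 1 SE. All 18 lactose values are positive, from 0.23 to 1.64, and 17 of the 18 glucose values are positive with wider bars.

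The largest positive differences outside this list belonged to genes without a name in the sources used here. TrG0424W (chromosome VII) had 1500.4 and 1553 in Rut-C30 LC, 20.6 and 21.1 in Rut-C30 LD, 1208 and 1248 in Δ*res2* LC and 42.1 and 73.2 in Δ*res2* LD. It was lowered in both strains, 72.8-fold in Rut-C30 and 21.1-fold in Δ*res2*, with the largest positive difference among the called genes, 1.79 ± 0.27 (adjusted p = 0.00151). TrD1148W (chromosome IV) had 6966 and 6971 in Rut-C30 LC, 3744 and 3791 in Rut-C30 LD, 5368 and 5441 in Δ*res2* LC and 8637 and 9955 in Δ*res2* LD. It fell 1.85-fold in Rut-C30 and rose 1.72-fold in Δ*res2*, both past the threshold, and its difference of 1.67 ± 0.12 had the smallest adjusted p of all genes (3.66e-06). The LD groups did not overlap, and the Δ*res2* LC libraries were slightly below those of Rut-C30. TrF0488W (chromosome VI) had 667 and 673 in Rut-C30 LC, 82.4 and 84.2 in Rut-C30 LD, 912 and 838 in Δ*res2* LC and 288 and 373 in Δ*res2* LD. In LD it stood 3.97-fold higher in Δ*res2* (1.60 ± 0.18, adjusted p = 1.79e-04). TrG0659W had 1714 and 1629 in Rut-C30 LC, 635 and 656 in Rut-C30 LD, 1585 and 1524 in Δ*res2* LC and 1541 and 1828 in Δ*res2* LD. It fell in Rut-C30 and stayed near its LC level in Δ*res2* (1.49 ± 0.12, adjusted p = 1.47e-05), as did TrA0619W to a lesser degree (1.53 ± 0.24, adjusted p = 0.00201).

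Other genes changed with DTT mainly in Δ*res2*. TrG0736C had 1894 and 1551 in Rut-C30 LC, 1525 and 1685 in Rut-C30 LD, 1535 and 1587 in Δ*res2* LC and 3966 and 4757 in Δ*res2* LD. It changed little in Rut-C30 (-0.10) and rose 2.79-fold in Δ*res2*, a difference of 1.59 ± 0.15 (adjusted p = 1.29e-04). TrB1817W had 1848 and 1786 in Rut-C30 LC, 1813 and 1780.2 in Rut-C30 LD, 1720.2 and 1642 in Δ*res2* LC and 3542 and 3686 in Δ*res2* LD. The 3 groups other than Δ*res2* LD lay together, and Δ*res2* LD was 2.15-fold above its LC (1.12 ± 0.10, adjusted p = 2.29e-05). TrB0446C had 1072 and 933 in Rut-C30 LC, 1386 and 1406 in Rut-C30 LD, 716 and 755 in Δ*res2* LC and 2365 and 2444 in Δ*res2* LD and rose in both strains, more in Δ*res2* (1.23 ± 0.11, adjusted p = 4.02e-05). TrA1113C is the next gene downstream of *res2*, 1411 bases away on the opposite strand, and had 4417 and 4126 in Rut-C30 LC, 4750.1 and 4549.5 in Rut-C30 LD, 1106 and 1092 in Δ*res2* LC and 2446 and 2533 in Δ*res2* LD. It was 3.89-fold lower in Δ*res2* without DTT and 1.87-fold lower with it, so its positive difference of 1.06 ± 0.10 (adjusted p = 6.15e-05) belongs to a gene that was low in every Δ*res2* library. Its place beside the inserted cassette and the loss of RES2 cannot be told apart.

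**Figure D5:**
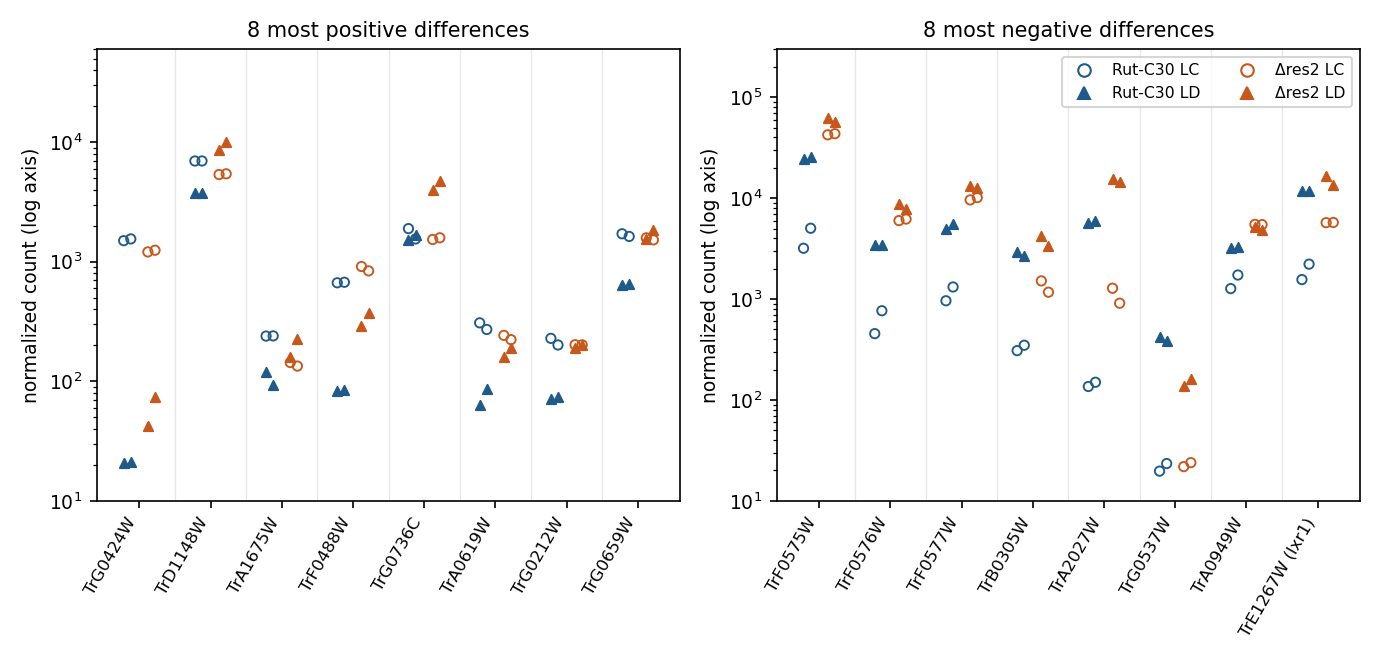
Normalized counts (y axes, log scale) of the 8 genes with the most positive (left) and the 8 with the most negative (right) strain difference, by the rule for named genes, in each of the 8 lactose libraries; circles are LC, triangles LD, blue Rut-C30 and orange Δ*res2*, and each symbol is 1 library. On the left, orange triangles lie above blue triangles for each gene, and on the right, orange circles lie above blue circles for 7 of the 8 genes, with TrG0537W the exception.

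Among called genes that averaged 100 or more normalized counts, the most negative differences came from 3 neighbours on chromosome VI, TrF0575W, TrF0576W and TrF0577W (2092099 to 2094821), which lie on the plus strand 248 and 318 bases apart. TrF0575W had 3189.9 and 5037 in Rut-C30 LC, 24253 and 25818 in Rut-C30 LD, 42530.0 and 43605 in Δ*res2* LC and 62175 and 57586 in Δ*res2* LD. It was 10.5-fold higher in Δ*res2* than in Rut-C30 without DTT and 2.39-fold higher with it. DTT raised it 6.09-fold in Rut-C30 and 1.39-fold in Δ*res2*, a difference of -2.13 ± 0.24 (adjusted p = 0.00117). TrF0576W had 454 and 766 in Rut-C30 LC, 3401 and 3427 in Rut-C30 LD, 6001 and 6214 in Δ*res2* LC and 8859.6 and 7831 in Δ*res2* LD, and TrF0577W had 962 and 1318 in Rut-C30 LC, 4960.0 and 5496 in Rut-C30 LD, 9620.1 and 10139 in Δ*res2* LC and 13168 and 12495 in Δ*res2* LD. Their differences were -2.04 ± 0.29 (adjusted p = 0.0163) and -1.82 ± 0.17 (adjusted p = 9.83e-05). The call of TrF0576W was lost when any library other than the 2 of Rut-C30 LC was left out (adjusted p up to 0.0945). The coding lengths of TrF0576W and TrF0577W were 171 and 207 bases, and whether the 3 models belong to 1 transcript was not tested. For all 3, the Δ*res2* LC libraries lay above even the Rut-C30 LD libraries.

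Other negative genes shared this raised starting level. TrA2027W had 136 and 149.7 in Rut-C30 LC, 5689 and 5979 in Rut-C30 LD, 1281 and 910.0 in Δ*res2* LC and 15455 and 14456 in Δ*res2* LD. DTT raised it 41-fold in Rut-C30 and 13.6-fold in Δ*res2* (-1.59 ± 0.20, adjusted p = 0.00108), from a start 7.71-fold higher in Δ*res2*. TrB0305W had 308 and 348 in Rut-C30 LC, 2904 and 2693 in Rut-C30 LD, 1514 and 1170.0 in Δ*res2* LC and 4203 and 3385 in Δ*res2* LD, with a difference of -1.60 ± 0.20 (adjusted p = 0.00229), and its direct neighbours TrB0304C (-0.80 ± 0.17, adjusted p = 0.0222) and TrB0306W (-0.63 ± 0.14, adjusted p = 0.0228) were negative too. TrA0949W had 1270.0 and 1732 in Rut-C30 LC, 3192 and 3306 in Rut-C30 LD, 5504 and 5471 in Δ*res2* LC and 5156 and 4892 in Δ*res2* LD, and only the Rut-C30 response was a rise (-1.25 ± 0.16, adjusted p = 0.00106). TrC1006C had 3098 and 3078 in Rut-C30 LC, 6709 and 6901 in Rut-C30 LD, 5781 and 5825 in Δ*res2* LC and 6200.3 and 4911 in Δ*res2* LD, so that Δ*res2* stayed near its LC level (-1.20 ± 0.13, adjusted p = 1.74e-04). TrA1738W and TrC0219C fell with DTT in Δ*res2* (-0.79 and -0.81) from LC levels 2.59-fold and 3.03-fold above Rut-C30, and had differences of -0.95 ± 0.11 (adjusted p = 2.24e-04) and -1.02 ± 0.12 (adjusted p = 2.46e-04). TrG0537W was different: it had 19.7 and 23.4 in Rut-C30 LC, 424 and 383 in Rut-C30 LD, 21.8 and 23.9 in Δ*res2* LC and 137 and 160.0 in Δ*res2* LD. It started at the same level in both strains and rose less in Δ*res2*, 6.5-fold against 18.8-fold (-1.53 ± 0.34, adjusted p = 0.0173). Its call was lost without Rut-C30 LC replicate 1, Rut-C30 LD replicate 1 or either Δ*res2* LC library (adjusted p up to 0.116) and with limma-voom (0.0706). Those of TrB0304C and TrB0306W were lost without 4 and 5 of the 8 libraries, among them Rut-C30 LD replicate 2, Δ*res2* LC replicate 1 and Δ*res2* LD replicate 2 for both (up to 0.0959 and 0.147).

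A Rut-C30 library bears on the negative genes. In 94 of the 118, Rut-C30 LC 1 was below Rut-C30 LC 2, against 52.1% of all genes, so the Rut-C30 starting level of these genes was the less certain one. Without Rut-C30 LC replicate 1 the negative count was 107, and without Rut-C30 LC replicate 2 it was 279. Both Δ*res2* LC libraries lay above both Rut-C30 LC libraries in 108 of the 118 genes, which was so for 23.4% of all genes. Choosing genes by a negative difference favours this position.

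Among the genes that passed and carry a RefSeq symbol were 5 enzyme genes of metabolism. What the 56 fitted genes with a symbol encode was not counted, so no theme is read from these 5. None of 9 genes of amino acid and central metabolism named by the study passed. The genes *acl2* (TrF0828C) and *acl1* (TrF0829W), neighbours on chromosome VI that encode the subunits of ATP citrate lyase, the source of cytosolic acetyl-CoA, were raised by DTT in both strains and more in Δ*res2*. For *acl1* the libraries had 11656 and 10354 in Rut-C30 LC, 41085 and 41092 in Rut-C30 LD, 9041 and 9334 in Δ*res2* LC and 49798 and 53743 in Δ*res2* LD, a rise of 3.73-fold in Rut-C30 and 5.63-fold in Δ*res2* (0.59 ± 0.14, adjusted p = 0.021). For *acl2* they had 7549.6 and 6911 in Rut-C30 LC, 16613 and 17457 in Rut-C30 LD, 5985 and 6094 in Δ*res2* LC and 20559 and 21198 in Δ*res2* LD (0.55 ± 0.12, adjusted p = 0.0144). In both genes the Δ*res2* LC libraries were the lowest and the Δ*res2* LD libraries the highest. The gene *lxr1* (TrE1267W), named for L-xylulose reductase, had 1560.3 and 2219 in Rut-C30 LC, 11764 and 11668 in Rut-C30 LD, 5721 and 5744 in Δ*res2* LC and 16699 and 13499 in Δ*res2* LD. It started 3.04-fold higher in Δ*res2*, and DTT raised it 6.21-fold in Rut-C30 and 2.63-fold in Δ*res2* (-1.24 ± 0.21, adjusted p = 0.0106). The glycogen phosphorylase gene *gph1* (TrC0723W) and the spermidine synthase gene *spe3* (TrA1192W) were lowered 19.6-fold and 4.29-fold in Rut-C30 and 13.7-fold and 3.15-fold in Δ*res2*, with small positive differences of 0.52 ± 0.12 (adjusted p = 0.0288) and 0.45 ± 0.11 (adjusted p = 0.0321). These 5 genes and *rpl8* were the 6 of 56 fitted genes with a RefSeq symbol that passed (3.94% over all genes). Only the 1729 genes with a TRIREDRAFT number could carry a symbol, and 122 of those passed. The 6 genes were named after their values were seen, *lxr1* and *acl1* also by the rule. The call of *lxr1* was lost without Rut-C30 LD replicate 1 (adjusted p = 0.0552). Those of *acl1*, *acl2* and *spe3* were lost without either Rut-C30 LD or Δ*res2* LC library or Δ*res2* LD replicate 2, and that of *gph1* also without Δ*res2* LD replicate 1 (adjusted p up to 0.136, 0.105, 0.228 and 0.171). That of *spe3* was lost as well with DESeq2's size factors, DESeq2 and limma-voom (adjusted p = 0.0565, 0.0647 and 0.0511).

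In the lipid list of 38 genes, 4 were positive and 3 negative (18.4% called, against 3.94% over all genes), with a median difference of -0.04. TrG1158C, among the positive genes with the most counts, had 23276 and 20276 in Rut-C30 LC, 66831 and 66781 in Rut-C30 LD, 16140.5 and 16311 in Δ*res2* LC and 85015 and 81680.3 in Δ*res2* LD, and rose more in Δ*res2* (0.74 ± 0.14, adjusted p = 0.00743). TrC0441C had 9125 and 7412 in Rut-C30 LC, 57314 and 53267 in Rut-C30 LD, 6079 and 6391 in Δ*res2* LC and 64683 and 68022 in Δ*res2* LD and did the same (0.67 ± 0.15, adjusted p = 0.0222). TrF0969W had 1267 and 1649 in Rut-C30 LC, 17559.9 and 18889 in Rut-C30 LD, 5142 and 5603 in Δ*res2* LC and 32446 and 30826 in Δ*res2* LD, starting 3.69-fold higher in Δ*res2* (-1.09 ± 0.16, adjusted p = 0.00119), and TrF0967C, the adjacent gene in the count table, had a like difference of -0.85 ± 0.11 (adjusted p = 8.43e-04). The lipid list thus held both patterns, a larger rise in Δ*res2* and a rise from a higher start. Among 74 transport genes, 3 were positive and 2 negative (6.76% called, near the 3.94% over all genes), with TrD1001W rising 13.6-fold in Rut-C30 and 24.8-fold in Δ*res2* (0.86 ± 0.13, adjusted p = 0.00158). TrG1158C lost its call without Rut-C30 LD replicate 1 or either Δ*res2* LC library (adjusted p up to 0.0628), and TrC0441C also without Rut-C30 LD replicate 2 or Δ*res2* LD replicate 2 (up to 0.141). These lists come from the study's own enrichment of these libraries and are not independent of them. Their members also come only from the 1729 genes that the study's gene lists paired with a TRIREDRAFT number. Of these, 122 passed, a larger share than over all genes, so 3.94% is a low background for the lists.

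Further genes are named for their counts. TrF0083C, of the polysaccharide breakdown list, had 125302 and 141250.0 in Rut-C30 LC, 1342 and 1599.7 in Rut-C30 LD, 139371 and 138633 in Δ*res2* LC and 2766 and 2435 in Δ*res2* LD. It fell 90.6-fold in Rut-C30 against 53.5-fold in Δ*res2* (0.76 ± 0.17, adjusted p = 0.0182), and it was the single gene of the 23 in that list to pass. TrB0335W had 5548 and 6994 in Rut-C30 LC, 198705 and 193889 in Rut-C30 LD, 11248 and 10636 in Δ*res2* LC and 183432 and 172452 in Δ*res2* LD, TrG0070W had 10214 and 15003 in Rut-C30 LC, 39749.5 and 41985 in Rut-C30 LD, 34670.3 and 32162 in Δ*res2* LC and 62962 and 60055 in Δ*res2* LD and TrA1205W had 11909 and 14109 in Rut-C30 LC, 35138 and 35537 in Rut-C30 LD, 25946 and 25479 in Δ*res2* LC and 44163 and 43019.9 in Δ*res2* LD. All 3 were raised by DTT in both strains, from a higher start in Δ*res2*, with differences of -0.95 ± 0.17 (adjusted p = 0.00558), -0.82 ± 0.20 (adjusted p = 0.0408) and -0.68 ± 0.14 (adjusted p = 0.0117). TrF0083C lost its call without Rut-C30 LD replicate 1, either Δ*res2* LC library or Δ*res2* LD replicate 1 (adjusted p up to 0.166). TrA1205W lost it without either Rut-C30 LD or Δ*res2* LC library or Δ*res2* LD replicate 2 (up to 0.0693), and TrG0070W without these or Δ*res2* LD replicate 1 (up to 0.168) and with limma-voom (0.0693).

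No strain difference passed the threshold in 4 genes of ER folding and ER-associated degradation, *bip1*, *pdi1*, *hrd1* and *lcl2*. The ER chaperone gene *bip1* (TrG0399C) had 73056 and 102201 in Rut-C30 LC, 719059 and 740773 in Rut-C30 LD, 103656 and 98566 in Δ*res2* LC and 744125 and 723465 in Δ*res2* LD, a rise of 8.33-fold in Rut-C30 and 7.26-fold in Δ*res2*. The difference was -0.20 ± 0.22 (95% interval -0.67 to 0.27, adjusted p = 0.74). This value rested on the Rut-C30 LC pair: it was 0.02 (adjusted p = 0.954) without Rut-C30 LC replicate 1 and -0.46 (adjusted p = 0.0274) without Rut-C30 LC replicate 2. The protein disulfide isomerase gene *pdi1* (TrA0675W) had 36106 and 45688 in Rut-C30 LC, 178973 and 182996 in Rut-C30 LD, 43299 and 43528 in Δ*res2* LC and 178077 and 165118 in Δ*res2* LD, with a difference of -0.16 ± 0.18 (interval -0.54 to 0.21, adjusted p = 0.732). The ubiquitin ligase gene of ER-associated degradation, *hrd1* (TrE0315W), had 5496 and 7230.1 in Rut-C30 LC, 12724 and 12429 in Rut-C30 LD, 6494 and 6350.2 in Δ*res2* LC and 11438 and 11201 in Δ*res2* LD, with a difference of -0.17 ± 0.15 (interval -0.48 to 0.15, adjusted p = 0.661), which became -0.38 (adjusted p = 0.0325) without Rut-C30 LC replicate 2. In each of *bip1*, *pdi1* and *hrd1* both strains rose with DTT and the LD groups were close. The study's cluster 4 holds the 4 genes among many others, and it was chosen from these libraries. There 17 of 413 genes were positive and 15 negative (7.75% called, against 3.94% over all genes). Cluster members come from the 1729 genes paired with a TRIREDRAFT number, of which 122 passed, so this share is not read as raised.

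No strain difference passed in the secreted enzyme genes *cbh1* and *xyn1* either, and their intervals leave room for a difference. The cellobiohydrolase gene *cbh1* (TrG0022C) had 2185210.0 and 3251930.0 in Rut-C30 LC, 15590.3 and 12276 in Rut-C30 LD, 2733230.0 and 2531150.0 in Δ*res2* LC and 12618 and 13473 in Δ*res2* LD, a fall of 195-fold in Rut-C30 and 202-fold in Δ*res2*. Its difference was -0.05 ± 0.27 (interval -0.63 to 0.53, adjusted p = 0.961). The xylanase gene *xyn1* (TrF0479W) had 62735 and 99038 in Rut-C30 LC, 348 and 196 in Rut-C30 LD, 89316 and 82345 in Δ*res2* LC and 287 and 377 in Δ*res2* LD, with a difference of 0.21 ± 0.48 and a wide interval of -1.002 to 1.41 (adjusted p = 0.9).

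Of the 77 genes that the study names with a pairable identifier, the 4 snoRNP genes and *tfIIIA* passed and 72 did not, and 62 of these 72 had a difference under 0.5 in size. Their differences ran from -0.97 for the xylanase gene *xyn3* (TrC0667W, adjusted p = 0.563) to 3.55 for the catalase gene *cta1* (TrA0445C, adjusted p = 0.487), and 32 were positive and 40 negative, with a median of -0.04. For *cta1* the libraries had 3.7 and 0.0 in Rut-C30 LC, 1642 and 1372 in Rut-C30 LD, 0.0 and 0.0 in Δ*res2* LC and 951 and 1046 in Δ*res2* LD, so its value rests on LC counts near 0. No gene passed among the terms for amino acid biosynthesis (14 genes), DNA repair (21), protein glycosylation (10), protein targeting to the ER (6), ER-associated degradation (2) and response to oxidative stress (2). All 14 amino acid genes were lowered, and all 21 DNA repair genes and 10 glycosylation genes raised, past the threshold in both strains, and their median differences were 0.03, 0.11 and -0.19.

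The 350 genes were also described by count level, gene structure and position. The count level comes from the same libraries that called the genes. It bears on how readily a gene passes, so it is not independent of the calls. The median of the mean normalized count was 1088 in positive and 4626 in negative genes, against 809.4 over all genes fitted. The median coding length was 1558.5 bases in positive and 1345.5 bases in negative genes, against 1290 over all genes fitted, and the median exon number was 2 in each. They were found on all chromosomes, from 3.27% of the fitted genes of chromosome V to 5.51% on chromosome VI. Neighbours were taken as genes adjacent in the count table by position, so that an annotated model without counts could lie between them. A neighbour called in the same direction was present for 45 of 346 called genes with a position (13%), whereas 6.77% of the genes that were not called had a called neighbour of either direction. The longest run was TrF0729W to TrF0732W on chromosome VI, 4 adjacent genes with negative differences, followed by the 3-gene runs at TrB0304C, TrE0160C and TrF0575W. Neighbouring genes are not independent where their transcripts overlap.

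The count of 350 genes holds for the lactose libraries fitted alone. When the more variable glucose libraries entered the same model, the biological coefficient of variation rose to 0.355 and no gene passed (0.00% of 9101; edgeR, where 66 genes had an unadjusted p below 0.05), although every one of the 350 kept its direction. With the lactose libraries alone, DESeq2 called 384 genes (209 positive and 175 negative, 54.4% against 66.3% positive) and limma-voom 292, sharing 304 and 287 with the 350. Leaving out single libraries gave 161 genes without Rut-C30 LD replicate 1 and 604 without Rut-C30 LC replicate 2, and 11 to 14 of the 18 ribosome biogenesis genes.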

How the data were processed

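Polyadenylated RNA of mycelia was sequenced as strand-specific single reads, with 16 libraries in the series and 2 per strain and condition. According to the authors' methods and the submitters' processing notes, reads were aligned to the QM6a genome with STAR 2.7.8a, reads with several alignments were removed, and reads on coding sequences of a custom annotation were counted with HTSeq 0.5.3; DESeq2 1.8.1 is also listed. The deposited values were these raw counts for 10008 genes, with no normalization, and the strand mode of counting was not given in the sources used here, so antisense neighbours may share reads. The start and end columns of the deposited annotation gave positions for 9847 genes (unit: other, base positions). TRIREDRAFT numbers were paired for 1729 genes through the study's supplementary gene lists, of which only identifiers were used, and RefSeq symbols (assembly v2.0) for 56. No product descriptions could be paired, so lists by product were not used.

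The 8 lactose libraries were fitted alone with edgeR 4.0.16 (limma 3.58.1, R 4.3.3), one mean per group, TMM factors, filterByExpr, robust estimateDisp, glmQLFit and glmQLFTest, with Benjamini-Hochberg adjustment over 8889 genes and a threshold of 0.05. SE was taken as the size of the log2 value over the root of its F statistic. Fitted log2 values contain a prior count of 0.125. The glucose libraries were fitted the same way, and all 16 in a further model. Alternatives were other scalings, no filter, edgeR without robust estimation, DESeq2 1.42.0, limma-voom, 16 libraries, stricter limits, a replicate block and each library left out. The fit was tested on simulated data, where 70% of 100 genes changed 2-fold and 38% of 100 changed 1.5-fold passed. Genes that did not pass may therefore still differ.

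Named genes had at least 100 mean normalized counts: the 8 most positive and 8 most negative, the 5 smallest adjusted p and the 4 highest means in each direction, plus genes the study names (those called, and *bip1*, *pdi1*, *hrd1*, *cbh1* and *xyn1*). Other list members, neighbours and genes with a RefSeq symbol were named after their values were seen. The members and lists were chosen with earlier results of these data known. Samples were grouped by their labels. Of the pairs of groups with the same replicate numbers, the correlations of deviations ran from -0.0108 to 0.118, so the numbers were not taken to pair the libraries. Duplicates differed by more than sampling noise in every group. Figures were drawn with matplotlib 3.10.9.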

Additional observations from a re-analysis of the deposited data

Results flagged for a closer look

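The DTT response in lactose differed between Rut-C30 and Δ*res2* by a test of the difference itself for 350 genes (edgeR's quasi-likelihood test, 3.94% of the genes fitted). Groups of 2 libraries are too small to test single libraries for extreme values. The difference between lactose and glucose passed for 0 genes, so no gene is listed for it.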

How the results depend on the processing

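Every one of the 350 genes kept the sign of its strain difference under each alternative fit, although the calls did not all hold. With all 16 libraries in the fit, 0 genes passed for the strain difference (edgeR; 0 positive, 0 negative, 66 at an unadjusted p under 0.05) and 0 of the 18 ribosome biogenesis genes; LD/LC passed for 3768 genes in the parent and 3722 in the deletion strain, and the strain effect for 2 genes in LC and 1 in LD. An adjusted p under 0.005 left 111 genes (77 positive, 34 negative), and a limit of 1 on the log2 difference left 61 (44 positive, 17 negative). Total counts with no scaling gave 3405 genes for the strain effect in LC and 2331 in LD, against 1238 and 1182, while the strain difference had 332. Leaving out 1 library gave 161 to 604 genes (102 to 325 positive, 58 to 279 negative), 11 to 14 ribosome biogenesis genes, 575 to 1656 genes for the strain effect in LC and 540 to 1534 in LD, and for LD/LC 6882 to 7333 genes in the parent and 6732 to 7344 in the deletion strain. For the total of the strain difference, the smallest count was without Rut-C30 LD replicate 1 and the largest without Rut-C30 LC replicate 2. Of 47 named genes that passed, 31 kept their call without any single library. Values of 4 named genes that did not pass changed sign without single libraries, with ranges of -0.36 to 0.21 for *cbh1* (TrG0022C), -0.16 to 0.68 for *xyn1* (TrF0479W), -0.46 to 0.0236 for *bip1* (TrG0399C) and -0.38 to 0.0195 for *hrd1* (TrE0315W). The replicate number as a block gave 396 genes (265 positive, 131 negative) and 14 ribosome biogenesis genes; the replicate numbers share no stated origin. Where a group was left with 1 library, that library was assumed to vary like the others. The 2 libraries per group limit all calls, and small differences may have gone undetected, in genes of low counts and in others.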
